A study of Mus musculus with 5 samples.

Results

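Fibroblast growth factor (FGF) signaling was examined through 10 genes chosen by name: the receptor genes *Fgfr1*, *Fgfr2*, *Fgfr3*, *Fgfr4* and *Fgfrl1*, and the stromal ligand genes *Fgf1*, *Fgf2*, *Fgf7*, *Fgf10* and *Fgf18*. All 10 were found by Ensembl identifier among the 30046 features of the counts table. The data are bulk RNA-seq of bone marrow stromal cells sorted as Cxcl12-GFP high tdTomato+ from femurs of mice at postnatal day 21 (P21), in 5 libraries. Of these, 3 hold the descendants of cells in which Dlx5-creER was active (Dlx5-CE-E12.5 cells, the Dlx5 libraries). The other 2 hold the descendants of cells in which Fgfr3-creER was active (Fgfr3-CE-E12.5 cells, the Fgfr3 libraries), and the labels number them 2 and 3. The comparison asks how stromal cells that descend from the fetal perichondrium differ from those that descend from fetal cartilage.

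The genotypes were Cxcl12(GFP/+); Dlx5(CreER/+); R26R(tdTomato/+) for the Dlx5 libraries and Cxcl12(GFP/+); Fgfr3-iCreER; R26R(tdTomato/+) for the Fgfr3 libraries. Both groups therefore carried a GFP allele at the *Cxcl12* locus, a tdTomato allele that is switched on for good by Cre, and a tamoxifen-dependent Cre. Dams were given 3 mg of tamoxifen when the embryos were 12.5 days old (E12.5). The study calls the libraries biologically independent samples and gives 4 pooled mice for each group, without saying how they were divided among libraries. The growth plates were removed before the cells were released, and the purity after the sort was not determined by the study. The Fgfr3-creER driver is a transgene made from a P1-derived artificial chromosome, whose extent is not given. If it holds transcribed copies of *Fgfr3*, their reads cannot be told apart from those of the native gene in counts per gene. The study's methods give 150-base paired-end reads for the Dlx5 libraries and 50-base single-end reads from another sequencer for the Fgfr3 libraries, whereas the labels name the same sequencer for all. Sequencing and lineage therefore cannot be told apart.

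FGFs are secreted proteins that bind receptor tyrosine kinases on the cell surface together with heparan sulfate, a sugar chain carried by syndecans, glypicans and perlecan. A bound receptor passes its signal through the adaptor FRS2 to the RAS, ERK and AKT kinase pathways, and the signal switches on its own inhibitors, among them Sprouty proteins and the phosphatase DUSP6. In the skeleton, FGF18 acts on cartilage and on bone-forming cells, FGFR3 restrains growth plate chondrocytes, and FGFR1 and FGFR2 act in osteoblasts and their progenitors.

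Total counts were 32563758, 22035650 and 27135553 in Dlx5 replicates 1, 2 and 3, and 56355203 and 58166285 in Fgfr3 replicates 2 and 3. Levels are given as CPM, the depth-scaled unit of edgeR, with TMM normalization. A count of 3, taken as the smallest detectable amount, corresponded to 0.0979, 0.141 and 0.119 CPM in Dlx5 replicates 1, 2 and 3, and to 0.0488 and 0.0473 CPM in Fgfr3 replicates 2 and 3. Such floors cover counting error only, because the reads carried no molecular identifiers. Log2 fold changes are Fgfr3 over Dlx5 libraries, so values above 0 mean more RNA in the Fgfr3 libraries. The edgeR quasi-likelihood test gave the p-values, which were adjusted over all genes tested, and a gene passed when its adjusted p was under 0.05 and its absolute log2 fold change above 1. In bulk RNA, fewer cells that express a gene and less RNA per cell cannot be told apart.

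The 4 detected receptors were higher in both Fgfr3 libraries, with *Fgfr2* the 1 receptor that passed both thresholds, and the main ligand, *Fgf7*, was higher in Dlx5-CE-E12.5 cells. *Fgf18* was near its detection limit in Dlx5-CE-E12.5 cells and present at a low level in Fgfr3-CE-E12.5 cells. *Fgfr4* was at or under the floor in every library, and *Fgf10* in all but Dlx5 replicate 2, with 4 counts. Among the members, 5 had 10 CPM or more in 2 or more libraries (*Fgfr1*, *Fgfr2*, *Fgfr3*, *Fgfrl1* and *Fgf7*) and were tested among 10088 genes. Of these 5, 1 was higher in the Fgfr3 libraries (16.4% of all genes tested were) and 1 was higher in the Dlx5 libraries (13.1%), so that 2 passed in either direction beside 29.5% of all genes. The adjusted p alone was under 0.05 for all 5, as it was for 48.4% of all genes tested. The groups did not overlap in any of the 5, which held for 68.9% of all genes tested. A further 3 members (*Fgf1*, *Fgf2* and *Fgf18*) had 1 CPM or more in 2 or more libraries and were tested among 13225 genes. There, 1 of the 3 was higher in the Fgfr3 libraries and 1 in the Dlx5 libraries, beside 16.6% and 12.9% of the genes, or 29.5% in either direction. *Fgf18* reached that level only in the Fgfr3 libraries, so it had to differ to be tested, and no support is taken from these counts.

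**Figure D1:**
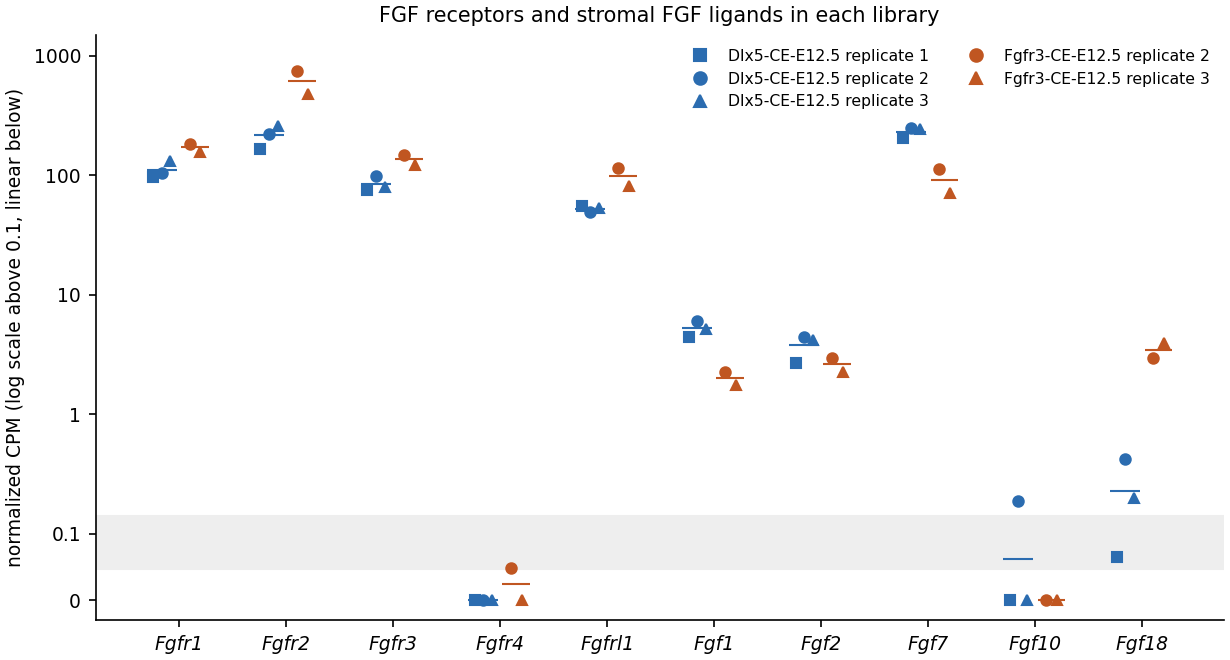
Normalized CPM of each member in each library, on an axis that is logarithmic above 0.1 and linear below, with points for libraries, lines for group means (n = 3 Dlx5 and 2 Fgfr3) and a grey band that spans the level of 3 counts, from 0.0473 to 0.141 CPM. The 4 detected receptors lie higher in both Fgfr3 libraries and *Fgf7* lies higher in all 3 Dlx5 libraries.

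*Fgfr2* (ENSMUSG00000030849, GRCm38 chr7:130162451-133123350) encodes a receptor kinase of osteoprogenitors and of many epithelia. Its level was 167, 221 and 259 CPM in Dlx5 replicates 1, 2 and 3, and 739 and 480 CPM in Fgfr3 replicates 2 and 3. Both Fgfr3 libraries lay above every Dlx5 library, and Fgfr3 replicate 2 was the highest, at 1.54 times replicate 3. The mean was 216 ± 46.5 CPM in the Dlx5 libraries (SD, n = 3) and 610 ± 183 CPM in the Fgfr3 libraries (SD, n = 2). *Fgfr2* thus rose by 1.50 on the log2 scale in Fgfr3-CE-E12.5 cells (SE 0.25, 95% interval 0.91 to 2.09, adjusted p = 0.00287, edgeR), or 2.83-fold. Across 15 alternatives the log2 fold change stayed between 1.16 and 1.80 and passed both thresholds in each. Exons of *Ctbp2*, a gene on the same strand, cover 3.04% of the annotated exon bases of *Fgfr2*, which count in its exon length below. *Ctbp2* itself had a log2 fold change of 0.72 (adjusted p = 0.00808, edgeR). Counts per gene do not separate the splice forms IIIb and IIIc, which set the ligands that the receptor binds.

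*Fgfr1* (ENSMUSG00000031565, chr8:25513654-25575718) encodes the receptor kinase typical of mesenchymal cells. Its level was 96.4, 104 and 131 CPM in Dlx5 replicates 1, 2 and 3, and 183 and 158 CPM in Fgfr3 replicates 2 and 3. The groups did not overlap, but the log2 fold change of 0.63 (SE 0.17, 95% interval 0.22 to 1.03, adjusted p = 0.0206, edgeR) was under the fold threshold. The adjusted p was 0.0554 without Dlx5 replicate 1, 0.0806 without Dlx5 replicate 2, 0.0768 without Fgfr3 replicate 2 and 0.0749 with a term for the replicate number, and ran from 0.00342 to 0.0806 over all alternatives. *Fgfrl1* (ENSMUSG00000008090, chr5:108692382-108706924) encodes a receptor-like protein that binds FGFs but has no kinase domain. Its level was 55.6, 48.9 and 53.3 CPM in Dlx5 replicates 1, 2 and 3, and 116 and 81.5 CPM in Fgfr3 replicates 2 and 3. The Dlx5 libraries were close together, and both Fgfr3 libraries lay above them. The log2 fold change was 0.91 (SE 0.18, 95% interval 0.49 to 1.33, adjusted p = 0.00569, edgeR), just under the threshold. It was 1.14, past the threshold, without Fgfr3 replicate 3, and 1.12 when scaled by library size alone. That scaling also moved the median log2 fold change of all genes tested from 0.01 to 0.22.

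*Fgfr3* (ENSMUSG00000054252, chr5:33721674-33737068), the chondrocyte receptor whose regulatory sequence drives the Cre of the Fgfr3 libraries, was present in both groups. Its level was 75.5, 98.5 and 79.8 CPM in Dlx5 replicates 1, 2 and 3, and 149 and 122 CPM in Fgfr3 replicates 2 and 3. Both Fgfr3 libraries lay above all Dlx5 libraries. The log2 fold change was 0.68 (SE 0.17, 95% interval 0.29 to 1.08, adjusted p = 0.0137, edgeR), under the fold threshold. The adjusted p was 0.0514 without Dlx5 replicate 3, 0.056 without Fgfr3 replicate 2 and 0.0522 once a GC content trend was taken out, within a range of 0.00188 to 0.056 over all alternatives. The driver sequence listed as iCre.ERT2 had 78 and 59.4 CPM in Fgfr3 replicates 2 and 3, and 14.7, 24.4 and 20.7 CPM in Dlx5 replicates 1, 2 and 3. Its log2 fold change of 1.79 passed both thresholds (adjusted p = 0.0012, edgeR).

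The genes within 100 kb of *Fgfr3* were read in the same way, because the extent of the artificial chromosome is not given. *Letm1*, whose nearer end lies 2.6 kb from *Fgfr3* and which encodes a mitochondrial ion exchanger, had 84.4, 85.3 and 90.3 CPM in Dlx5 replicates 1, 2 and 3, and 197 and 228 CPM in Fgfr3 replicates 2 and 3. It rose by 1.29 on the log2 scale (SE 0.13, adjusted p = 0.00038, edgeR), more than *Fgfr3* itself. *Tacc3*, a spindle gene 42.7 kb away, and *Nsd2*, a histone methyltransferase gene 83.7 kb away, had log2 fold changes of 1.87 and 1.57 (adjusted p = 0.00078 and 0.00158, edgeR) and passed as well. *Slbp* (0.22), *Tmem129* (-0.06) and *Fam53a* (-0.34), at 69.1, 63.3 and 92 kb, did not pass. Along the chromosome, *Tacc3* lies on one side of *Fgfr3* and *Letm1* and *Nsd2* lie on the other, and *Tmem129*, *Slbp* and *Fam53a* lie beyond *Tacc3*. Thus 3 of the 6 genes tested beside *Fgfr3* passed, where 16.4% of all genes tested were higher in the Fgfr3 libraries, and *Fgfr3* itself stayed under the fold threshold. Whether transgenic copies contributed to any of them was not tested. *Gm9903* stayed at or under 1.13 CPM in every library and *Gm10059*, a pseudogene, had 4.66, 3.91 and 3.9 CPM in Dlx5 replicates 1, 2 and 3 against 0.0163 and 0 CPM in Fgfr3 replicates 2 and 3. *Gm10459*, *Gm42965* and *Gm30708* were at or under 0.517 CPM throughout. *G630022F23Rik*, annotated on the other strand across 13.9% of the exon bases of *Fgfr3*, had 2, 2 and 4 counts in Dlx5 replicates 1, 2 and 3, and 75 and 11 counts in Fgfr3 replicates 2 and 3. Reads of this pair cannot be told apart where they overlap, since the library kit does not mark strand.

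*Fgfr4* (ENSMUSG00000005320, chr13:55152640-55168759), a receptor kinase best known from liver and muscle, had 0 counts in 4 libraries and 3 counts in Fgfr3 replicate 2. A count of 3 would make up 0.0873% or less of the receptor reads per kb in each library, and a difference under that could not be seen at this depth.

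Because a longer transcript gives more reads, levels of different genes were compared only per kilobase of exon. On this scale, the order in Dlx5-CE-E12.5 cells was *Fgf7* (71.5 ± 7.6 CPM per kb, SD, n = 3), *Fgfr2* (20.9 ± 4.5), *Fgfrl1* (18.9 ± 1.22), *Fgfr3* (11.8 ± 1.71), *Fgfr1* (11.2 ± 1.83), *Fgf1* (0.957 ± 0.15), *Fgf2* (0.557 ± 0.142) and *Fgf18* (0.193 ± 0.153). On this scale *Fgfr2* and *Fgfrl1* did not differ beyond their spread in these cells, nor did *Fgfr3* and *Fgfr1*. The orders given here are those with all exons. How far receptors lie apart depends on the length used, and their order can too. *Fgfrl1* has 2782 bases of exon and 1587 of coding sequence, *Fgfr1* 9875 and 2499, and *Fgfr3* 7158 and 2406. The places of these receptors relative to one another therefore change with the length. In Dlx5 replicate 1, the ratio of *Fgfr2* to *Fgfrl1* per kb was 0.809 with all exons and 1.58 with the longest transcript. The ratio of *Fgfr2* to *Fgfrl1* per kb had a mean of 1.11 ± 0.267 (SD, n = 3) in the Dlx5 libraries with all exons, and of 2.17 ± 0.52 with the longest transcript and 2.6 ± 0.623 with the coding length, lengths chosen for this pair after the data were seen. In Fgfr3-CE-E12.5 cells, the order was *Fgfr2* (59 ± 17.7 CPM per kb, SD, n = 2), *Fgfrl1* (35.5 ± 8.82), *Fgf7* (28.4 ± 8.91), *Fgfr3* (18.9 ± 2.6), *Fgfr1* (17.3 ± 1.85), *Fgf18* (2.91 ± 0.607), *Fgf2* (0.386 ± 0.0715) and *Fgf1* (0.37 ± 0.0658). Here the ranges of 1 SD overlapped between *Fgfr2* and *Fgfrl1*, *Fgfrl1* and *Fgf7*, *Fgf7* and *Fgfr3*, *Fgfr3* and *Fgfr1*, and *Fgf2* and *Fgf1*. Each of these pairs had the same order in both Fgfr3 libraries with all exons. The ratio of *Fgfr2* to *Fgfrl1* per kb was then 1.71 and 1.59 in Fgfr3 replicates 2 and 3. The ligand *Fgf7* thus led in the Dlx5 libraries, while *Fgfr2* had the highest mean in the Fgfr3 libraries.

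Within the 4 receptor kinases, *Fgfr2* held the largest share of reads per kb in every library. Its share was 44.3%, 46.8% and 50.7% in Dlx5 replicates 1, 2 and 3, and 64.5% and 58.4% in Fgfr3 replicates 2 and 3, and the groups did not overlap. The share of *Fgfr1* was 26.8%, 23% and 26.8% in Dlx5 replicates 1, 2 and 3, and 16.7% and 20.1% in Fgfr3 replicates 2 and 3. The share of *Fgfr3* was 28.9%, 30.1% and 22.5% in Dlx5 replicates 1, 2 and 3, and 18.7% and 21.5% in Fgfr3 replicates 2 and 3. The mean share of *Fgfr2* was therefore 14.2 percentage points higher in the Fgfr3 libraries, and those of *Fgfr1* and *Fgfr3* differed by -7.12 and -7.08 points. In an exact permutation test over libraries, made two-sided by doubling the p of 1 side, each of the 3 shares had p = 0.2. It was also 0.2 after adjustment over the 3 receptors. With that doubling, 0.2 is the smallest value that 3 libraries against 2 allow. The half-width of the 95% counting interval of a share (delta method) was 1 point or less, smaller than the spread between libraries. As a ratio per kb, *Fgfr2* over *Fgfr1* was 1.65, 2.03 and 1.9 in Dlx5 replicates 1, 2 and 3, and 3.85 and 2.91 in Fgfr3 replicates 2 and 3.

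**Figure D2:**
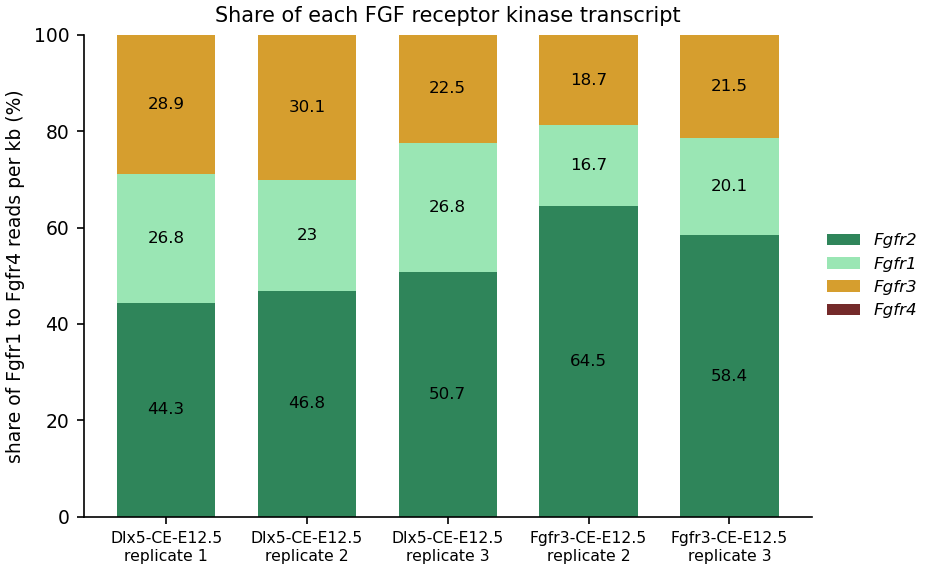
Share of each receptor kinase gene among the reads per kb of *Fgfr1* to *Fgfr4*, in percent, with 1 bar for each library and the share printed in each segment. *Fgfr2* takes 44.3% to 50.7% in the Dlx5 libraries and 58.4% to 64.5% in the Fgfr3 libraries, and *Fgfr4* is too low to be seen.

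*Fgf7* (ENSMUSG00000027208, chr2:126034658-126091185), also called keratinocyte growth factor, is a ligand made by mesenchymal cells that binds the IIIb form of FGFR2. Its level was 204, 249 and 243 CPM in Dlx5 replicates 1, 2 and 3, and 113 and 71.6 CPM in Fgfr3 replicates 2 and 3. Every Dlx5 library lay above both Fgfr3 libraries, and Fgfr3 replicate 3 was the lowest. The mean was 232 ± 24.7 CPM (SD, n = 3) against 92.1 ± 28.9 CPM (SD, n = 2). *Fgf7* fell by 1.33 on the log2 scale in Fgfr3-CE-E12.5 cells (SE 0.22, adjusted p = 0.00291, edgeR), so it was 2.52-fold higher in Dlx5-CE-E12.5 cells. The log2 fold change ran from -1.70 to -1.04 over 15 alternatives and passed both thresholds in each. Its transcripts share no window of 50 bases with other genes.

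*Fgf18* (ENSMUSG00000057967, chr11:33117430-33147400), a ligand of FGFR3 and of the IIIc receptor forms that acts on cartilage and bone, had 2, 9 and 5 counts in Dlx5 replicates 1, 2 and 3, and 181 and 251 counts in Fgfr3 replicates 2 and 3. As levels, these were 0.0652, 0.424 and 0.199 CPM, and 2.94 and 3.96 CPM. Dlx5 replicate 1 was under the floor of 3 counts, and both Fgfr3 libraries were far above it. The fitted log2 difference was 3.93, and 4.69 without Dlx5 replicate 2. It is given as a description with no p, because *Fgf18* met the lower filter through the Fgfr3 libraries alone and had to differ to be fitted. Unlike *Fgfr2*, *Fgf7* and *Fgf1*, *Fgf18* was lower in Fgfr3 replicate 2 than in replicate 3, at 0.743 times its level.

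*Fgf1* (ENSMUSG00000036585, chr18:38838673-38929472), a ligand that binds every FGF receptor kinase, had 4.44, 6.07 and 5.17 CPM in Dlx5 replicates 1, 2 and 3, and 2.28 and 1.77 CPM in Fgfr3 replicates 2 and 3. The groups did not overlap, and *Fgf1* fell by 1.39 on the log2 scale in Fgfr3-CE-E12.5 cells (SE 0.38, adjusted p = 0.0221, edgeR with the lower filter). This call was lost without Dlx5 replicate 2 (adjusted p = 0.0892), Dlx5 replicate 3 (0.0678) or Fgfr3 replicate 3 (0.0912), within a range of 0.00093 to 0.0912 over all alternatives. *Fgf2* (ENSMUSG00000037225, chr3:37348346-37410108), a ligand kept in the matrix around cells, had 2.67, 4.47 and 4.18 CPM in Dlx5 replicates 1, 2 and 3, and 2.96 and 2.27 CPM in Fgfr3 replicates 2 and 3. The groups overlapped, and its log2 fold change of -0.55 (SE 0.42, 95% interval -1.54 to 0.44, adjusted p = 0.328, edgeR with the lower filter) did not pass. Exons of *Nudt6*, its antisense neighbor, and of *Gm43439* together cover 13.2% of the exon bases of *Fgf2*. *Nudt6* had a log2 fold change of 0.32 (adjusted p = 0.569, edgeR), *Gm43439* had at most 0.0325 CPM, and reads on the overlap cannot be assigned without strand. *Fgf10* (ENSMUSG00000021732, chr13:118669791-118792115), the ligand of FGFR2 IIIb in limb and lung buds, had 4 counts in Dlx5 replicate 2 and 0 in the other 4 libraries. *Gm16159*, which overlaps 1.66% of the exon bases of *Fgfr1*, had at most 0.0471 CPM.

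**Figure D3:**
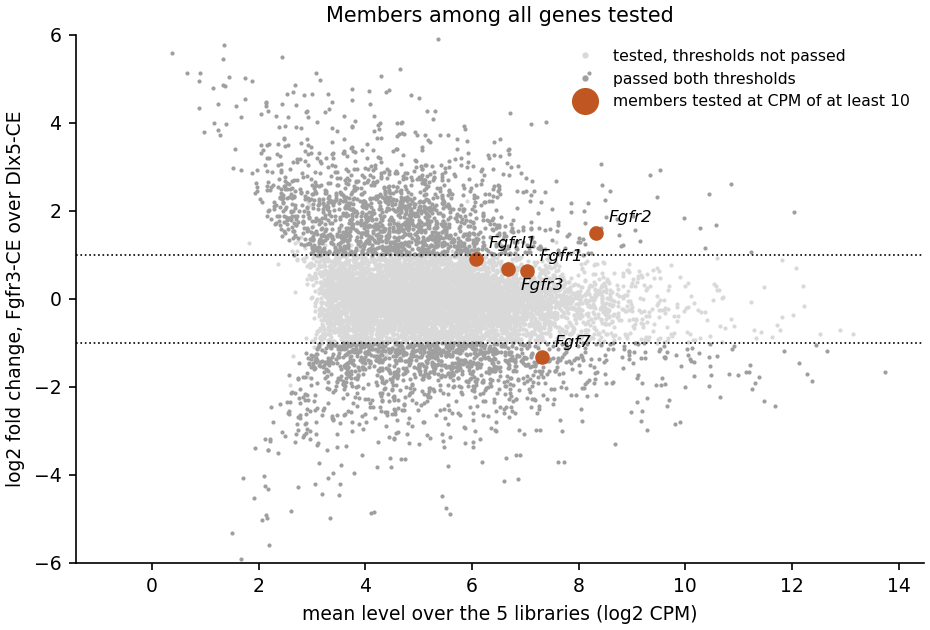
Log2 fold change (Fgfr3 over Dlx5) against the mean log2 CPM over the 5 libraries for each of the 10088 genes tested, with dotted lines at 1 and -1 and 24 genes beyond 6 in either direction left out. The 5 members tested at this level are labeled, and of these *Fgfr2* (1.50) and *Fgf7* (-1.33) lie outside the lines.

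RefSeq promoter windows (GRCm38.p6) were on hand for 8 members: *Fgfr2*, *Fgfr3*, *Fgfr4*, *Fgfrl1*, *Fgf2*, *Fgf7*, *Fgf10* and *Fgf18*. There was none for *Fgf1* (log2 fold change -1.39). The windows of *Fgfr2*, *Fgf7* and *Fgf18* are shown, which differed most between the groups among these 8. The first of 2 for *Fgfr3*, whose regulatory sequence drives the Cre, is shown as well. Each is given 5′ to 3′ on the strand of the gene, trimmed so that at most 30 exon bases remain. That of *Fgfr2* holds 0 exon bases and lies within the span given above for the gene. Capitals mark matches on either strand to the GC box GGGCGG, the RUNX core TGTGGT, the homeobox core TAATTA, the SOX core AACAAT and the ETS core GGAAGT.
Fgfr2 (chr7:130266779-130267058, minus strand): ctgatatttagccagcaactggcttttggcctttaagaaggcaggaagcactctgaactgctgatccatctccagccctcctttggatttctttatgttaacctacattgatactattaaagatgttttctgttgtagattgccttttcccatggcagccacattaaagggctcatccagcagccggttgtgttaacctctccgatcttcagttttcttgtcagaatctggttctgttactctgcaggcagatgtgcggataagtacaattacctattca
Fgfr3 (chr5:33721474-33721703, plus strand): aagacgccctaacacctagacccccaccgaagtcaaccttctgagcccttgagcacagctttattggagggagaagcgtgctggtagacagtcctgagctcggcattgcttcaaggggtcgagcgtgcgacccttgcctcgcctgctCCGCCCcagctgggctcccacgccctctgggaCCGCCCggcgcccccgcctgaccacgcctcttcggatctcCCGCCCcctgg
Fgf7 (chr2:126034408-126034687, plus strand): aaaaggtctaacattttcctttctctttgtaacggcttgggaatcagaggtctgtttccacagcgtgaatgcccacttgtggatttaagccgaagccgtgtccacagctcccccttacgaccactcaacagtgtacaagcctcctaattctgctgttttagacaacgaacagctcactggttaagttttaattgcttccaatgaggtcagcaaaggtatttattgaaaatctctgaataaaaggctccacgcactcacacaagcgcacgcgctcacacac
Fgf18 (chr11:33147371-33147650, minus strand): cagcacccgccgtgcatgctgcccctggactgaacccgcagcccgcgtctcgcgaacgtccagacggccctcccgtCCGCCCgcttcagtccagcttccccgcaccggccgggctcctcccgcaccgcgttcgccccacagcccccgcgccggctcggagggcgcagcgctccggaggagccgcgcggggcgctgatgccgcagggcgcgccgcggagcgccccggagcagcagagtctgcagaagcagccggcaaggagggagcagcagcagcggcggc

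In these windows the GC box occurs 3 times in *Fgfr3* and 1 time in *Fgf18*, and not in *Fgfr2* or *Fgf7*. The second window of *Fgfr3* (chr5:33722056-33722335, 72.5% G and C), not shown, holds it 2 times. It is found in 29.8% of all 32851 promoter windows trimmed to the 230 bases shown for *Fgfr3*, and in 34.7% of those trimmed to 280 bases. The RUNX, homeobox, SOX and ETS cores were not matched in the 4 windows, so no 2 kinds of motif overlapped. In all windows of 280 bases these cores occur in 15.6%, 5.09%, 10.3% and 22.3%, and in those of 230 bases in 13.2%, 4.67%, 8.98% and 17.6%. The windows differ in base composition. That of *Fgf18* is 77.1% G and C with 40 CG pairs and that shown for *Fgfr3* 66.1% with 17, while those of *Fgf7* and *Fgfr2* are 45.7% with 10 and 43.2% with 3. The matches describe letters only, and binding of a factor was not measured.

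For *Fgfr2*, *Fgf7* and *Fgfr3*, genes with the most similar pattern over the 5 libraries were found among the other 10087 tested, by the root mean square difference of log2 CPM centered on each gene's mean. *Fgfr2* was closest to *Ctnnb1*, which encodes beta-catenin (difference 0.0957), *Arhgef11* (0.104) and *Ptx3* (0.108). These 3 had log2 fold changes of 1.43, 1.49 and 1.30. *Fgf7* was closest to *Chd6* (0.0489) and *Rprd2* (0.0511), with log2 fold changes of -1.39 and -1.30. *Fgfr3* was closest to *Dhx8* (0.0244), *Zfp644* (0.036) and *Zfp319* (0.0376), at 0.64, 0.69 and 0.68. With the gene length trend taken out, *Chd6* and *Rprd2* lost their calls, at -0.61 and -0.92, and *Zfp644* passed, at 1.26. The closeness says nothing of shared function.

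The rest of the pathway was read from 9 lists that include the members, with 116 genes in all. Of these, 107 were matched and 68 were tested at a CPM of at least 10, with 19 higher in the Fgfr3 libraries and 17 in the Dlx5 libraries, beside 16.4% and 13.1% of all genes tested. These counts, and those of the lists that make them up, include genes that met the filter through 1 group alone, so they describe the lists and nothing more is read from them. Scaled by library size alone, these counts were 22 and 13. Without the members, 63 genes were tested, 18 higher in the Fgfr3 libraries and 16 in the Dlx5 libraries, and their median log2 fold change was -0.04, beside 0.01 over all genes tested. Changes in both directions were found within the groups of relay proteins, inhibitors and heparan sulfate genes.

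Other ligands were scarce. Of 17 further FGF genes, 13 were matched, and 1 was tested at a CPM of at least 10. This was *Fgf13*, an intracellular member of the family that does not signal through the receptors, with 14, 17.5 and 14 CPM in Dlx5 replicates 1, 2 and 3, and 27.8 and 24.6 CPM in Fgfr3 replicates 2 and 3. The log2 fold change, 0.79 (adjusted p = 0.0135, edgeR), did not reach the fold threshold. *Fgf11*, another intracellular member, had means of 1.94 CPM in the Dlx5 libraries and 1.32 CPM in the Fgfr3 libraries (log2 fold change -0.58, adjusted p = 0.487, edgeR with the lower filter). *Fgf23*, the bone hormone that lowers phosphate, had 8, 50 and 17 counts in Dlx5 replicates 1, 2 and 3, and 0 and 31 counts in Fgfr3 replicates 2 and 3, so the groups overlapped. Of 7 co-receptors and binding proteins, 6 were matched and 1 was tested at a CPM of at least 10. *Flrt2*, a membrane protein that binds FGF receptors, had 106, 81 and 106 CPM in Dlx5 replicates 1, 2 and 3, and 36.2 and 27.4 CPM in Fgfr3 replicates 2 and 3. It fell by 1.62 on the log2 scale in Fgfr3-CE-E12.5 cells (SE 0.20, adjusted p = 0.00086, edgeR) and was 3.07-fold higher in Dlx5-CE-E12.5 cells.

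Of 27 relay genes, 26 were tested, 8 were higher in the Fgfr3 libraries and 3 in the Dlx5 libraries (5 without Fgfr3 replicate 2), with a median log2 fold change of 0.07. *Hras*, a RAS GTPase gene, had 3.23, 2.12 and 1.91 CPM in Dlx5 replicates 1, 2 and 3, and 39.1 and 45.8 CPM in Fgfr3 replicates 2 and 3. Its fitted log2 difference was 4.12, given with no p because it met the filter through the Fgfr3 libraries alone and had to differ to be tested. The filter was likewise met through the Fgfr3 libraries alone by *Fosl1*, *Mcam*, *Cspg4*, *Vav1*, *Col2a1*, *Col9a3* and *Col11a2*. *Spry2* and *Gpc3* met it through the Dlx5 libraries alone. *Pecam1* and *Acta2* also reached 10 CPM in Dlx5 replicate 1 (12.6 and 13.6 CPM), and *Ndst2* in Dlx5 replicate 3 (12.1 CPM). For them the Dlx5 libraries would not have met the filter without the Fgfr3 libraries. *Phex* reached 10 CPM in Fgfr3 replicate 2 (15.5 CPM) but not in replicate 3. All of these are given with no p. *Akt1*, a kinase that relays survival signals, rose by 3.30 (SE 0.17, adjusted p = 4.3e-05, edgeR), from a mean of 41.7 to 411 CPM. The groups were far apart in both genes. No 50-base window of *Hras* or *Akt1* occurs in another gene. In the other direction, *Ptpn11*, which encodes the phosphatase SHP2, fell by 1.46 (adjusted p = 0.0003, edgeR). *Pik3r1*, a regulatory subunit of PI3 kinase, fell by 1.43 (adjusted p = 0.00161, edgeR), and *Cbl*, a ubiquitin ligase gene, fell by 1.39 (adjusted p = 0.00112, edgeR). The call of *Cbl* was lost when a trend on gene length was removed, at -0.93.

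The feedback inhibitors, which FGF signaling induces, were divided. Of 11 genes, 10 were matched, 7 were tested, 3 were higher in each lineage and 1 did not pass, and the median log2 fold change was 0.10. *Spry1* had 54.3, 67.9 and 72.6 CPM in Dlx5 replicates 1, 2 and 3, and 301 and 245 CPM in Fgfr3 replicates 2 and 3, and rose by 2.07 (SE 0.17, adjusted p = 0.00018, edgeR). *Spry4* had 108, 123 and 184 CPM in Dlx5 replicates 1, 2 and 3, and 52.4 and 37.3 CPM in Fgfr3 replicates 2 and 3, and fell by 1.62 (SE 0.28, adjusted p = 0.0031, edgeR). *Spry2* had means of 13.6 CPM in the Dlx5 libraries and 1.2 CPM in the Fgfr3 libraries, a log2 difference of -3.50. *Spry1* and *Spry4* thus went in opposite directions, the first higher in the Fgfr3 libraries and the second in the Dlx5 libraries. *Spry2* met the filter through the Dlx5 libraries alone and had to differ to be tested, so no direction is read from it. Among the phosphatases that act on MAP kinases, *Dusp5* rose by 2.74 (adjusted p = 0.00078, edgeR) and *Dusp4* fell by 1.14 (adjusted p = 0.00897, edgeR). *Dusp6*, the phosphatase of ERK most often used as a readout of FGF signaling, had 75.4, 65.4 and 73.1 CPM in Dlx5 replicates 1, 2 and 3, and 90.5 and 62.2 CPM in Fgfr3 replicates 2 and 3. Its groups overlapped, with a log2 fold change of 0.10 (SE 0.19, adjusted p = 0.69, edgeR). *Spred1* rose by 1.36 (adjusted p = 0.0048, edgeR). The call of *Dusp4* was lost without Fgfr3 replicate 2, at -0.98, and under library-size scaling, at -0.93, and that of *Spred1* was lost without Fgfr3 replicate 2, at 0.94. Counts of *Spry1* and *Dusp5* are less certain than the others, since 21.8% and 20.5% of their 50-base windows also occur in overlapping annotated genes.

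Of 9 transcriptional targets, 7 were tested, 1 was higher in each lineage and 5 did not pass, with a median log2 fold change of -0.14. With the lower filter, 2 were higher in the Fgfr3 libraries. The further one was the ETS factor gene *Etv4*, at means of 0.661 CPM in the Dlx5 libraries and 4.21 CPM in the Fgfr3 libraries, which was named after its values were seen. *Fosl1*, the other, met the filter through the Fgfr3 libraries alone, and nothing is read from these counts. *Fosl1*, an AP-1 subunit gene, had a log2 fold change of 1.21, but 52.6% of its windows also occur in *Ccdc85b*, so its counts are uncertain. *Etv1*, an ETS factor gene, had a log2 fold change of -1.09 (adjusted p = 0.0282, edgeR). Its call was lost without Dlx5 replicate 2 (-0.91), Dlx5 replicate 3 (-1.06, adjusted p = 0.0609, in a range of 0.00345 to 0.122 over all alternatives) or Fgfr3 replicate 3 (-0.74), under library-size scaling (-0.89) and with the gene length trend taken out (-0.59). The log2 fold changes of those that did not pass were 0.55 for *Etv5*, 0.33 for *Egr1*, -0.14 for *Ier3*, -0.25 for *Ier2* and -0.58 for *Myc*. *Etv5* shares 24.5% of its windows with a pseudogene, *Gm4798*.

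**Figure D4:**
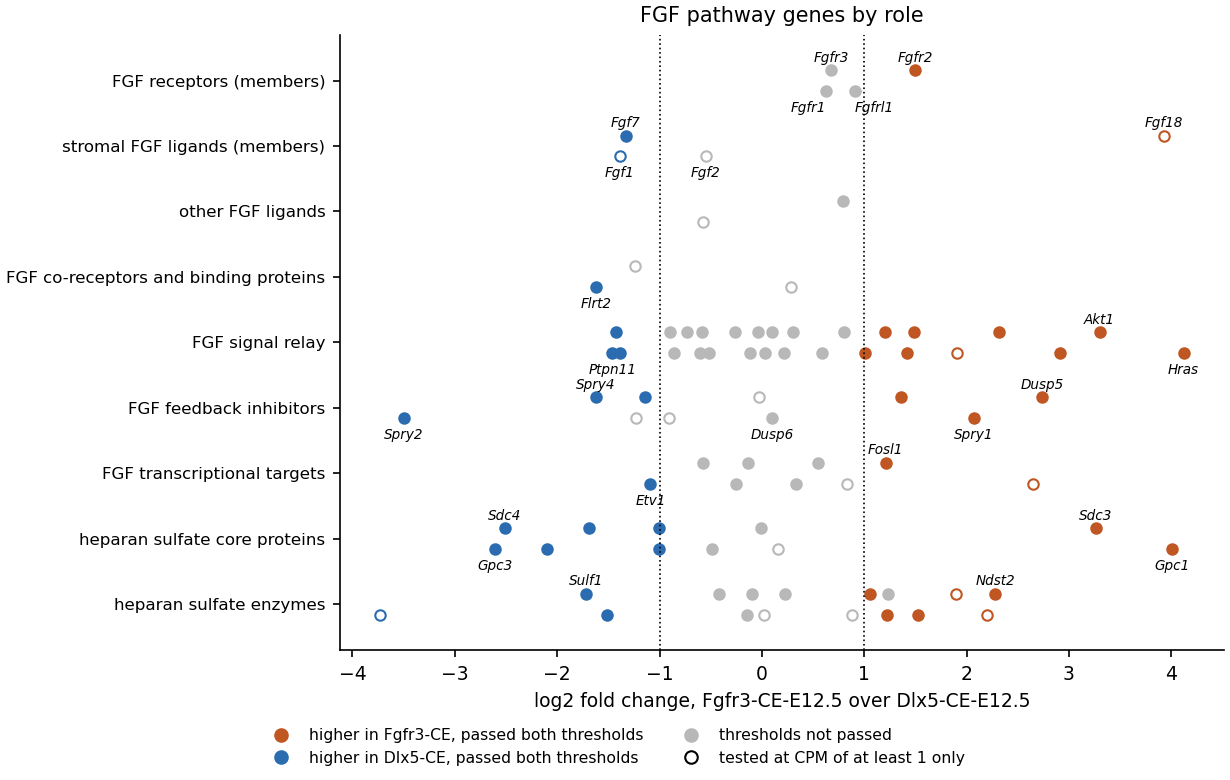
Log2 fold change (Fgfr3 over Dlx5) of each tested gene of the 9 pathway lists, 1 line for each list, with dotted lines at 1 and -1; orange and blue points passed both thresholds, grey points did not, and open points were tested only at a CPM of at least 1. Relay genes, feedback inhibitors and heparan sulfate genes hold points on both sides, from *Spry2* at -3.50 to *Hras* at 4.12 among the filled points.

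Heparan sulfate core proteins changed in both directions. Of 12 genes, 10 were tested, 6 were higher in the Dlx5 libraries and 2 in the Fgfr3 libraries, and the median log2 fold change was -1.01. The count in the Dlx5 libraries was 4 when scaled by library size alone, with all features, or without Fgfr3 replicate 3. The perlecan gene *Hspg2* and the syndecan gene *Sdc4* had log2 fold changes of -2.10 and -2.51 (adjusted p = 0.0061 and 0.0005, edgeR), and the glypican gene *Gpc3* had -2.61. *Gpc1*, another glypican gene, had 49.4, 55.6 and 61.4 CPM in Dlx5 replicates 1, 2 and 3, and 758 and 1028 CPM in Fgfr3 replicates 2 and 3, and rose by 4.01 (SE 0.19, adjusted p = 4.3e-05, edgeR). The syndecan gene *Sdc3* rose by 3.26 (SE 0.38, adjusted p = 0.00064, edgeR), from a mean of 36.2 to 345 CPM. The 2 core protein genes that rose were a glypican gene and a syndecan gene, and the syndecan gene *Sdc4* fell. *Gpc3* met the filter through the Dlx5 libraries alone and had to differ to be tested, so nothing is read from its fall. In *Gpc1*, 18% of windows also occur in its neighbor *Ankmy1*, and in *Sdc3* 5.36% in *Gm26716*.

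Of 23 enzymes that build or trim heparan sulfate, 20 were matched and 11 were tested, 4 were higher in the Fgfr3 libraries and 2 in the Dlx5 libraries, with a median log2 fold change of 0.23. With no filter other than 1 count, 7 were higher in the Fgfr3 libraries. The sulfotransferase gene *Ndst2* had a log2 fold change of 2.28, *Hs2st1*, another, rose by 1.53 (adjusted p = 0.00107, edgeR), and *Ext1*, which lengthens the chain, rose by 1.22 (adjusted p = 0.00066, edgeR). *Sulf1*, which removes sulfate groups outside the cell, had 177, 300 and 298 CPM in Dlx5 replicates 1, 2 and 3, and 83.4 and 73.5 CPM in Fgfr3 replicates 2 and 3, and fell by 1.72 (SE 0.26, adjusted p = 0.00193, edgeR). *Extl3*, which starts the chain, fell by 1.51 (adjusted p = 0.00032, edgeR).

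Markers of the sorted stroma and of other cell types were read beside these results, because the 2 lineages and the 2 Fgfr3 libraries differed in them. All 12 markers of CXCL12-abundant reticular stroma had at least 10 CPM in every library. Of the 12, 9 were higher in the Dlx5 libraries and 1 in the Fgfr3 libraries, beside 13.1% and 16.4% of all genes tested. The counts of the marker lists that follow stand beside the same shares. Their summed level was 42837, 42426 and 41216 CPM in Dlx5 replicates 1, 2 and 3, and 17644 and 10350 CPM in Fgfr3 replicates 2 and 3, the same order of groups as for *Fgf7*. The most abundant was *Cxcl12* (log2 fold change -1.67), and the largest changes were those of *Foxc1* (2.82) and *Kitl* (-2.80, and -3.81 without Fgfr3 replicate 2). *Il7*, which was also higher in the Dlx5 libraries, had 447, 576 and 641 CPM in Dlx5 replicates 1, 2 and 3, and 169 and 69.6 CPM in Fgfr3 replicates 2 and 3. The reporter sequence egfp had 10683, 11055 and 12340 CPM in Dlx5 replicates 1, 2 and 3, and 7454 and 5647 CPM in Fgfr3 replicates 2 and 3. Its log2 fold change of -0.79 did not pass, but was -1.01 and passed without Fgfr3 replicate 2. The tdtomato sequence had 117, 174 and 155 CPM, and 55 and 69.6 CPM. Its log2 fold change of -1.26 passed both thresholds (adjusted p = 0.00302, edgeR). The cre sequence had 13.6, 22 and 18.1 CPM, and 0.0163 and 0.0158 CPM, and eyfp had 112, 148 and 119 CPM, and 0 and 0.0947 CPM.

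Among 14 chondrocyte markers, 6 were tested and 4 were higher in the Fgfr3 libraries. These 4 were under 10 CPM in every Dlx5 library and had to differ to be tested, so nothing is read from the count. The summed level of the 14 was 188, 192 and 182 CPM in Dlx5 replicates 1, 2 and 3, and 3563 and 531 CPM in Fgfr3 replicates 2 and 3, so Fgfr3 replicate 2 stood apart. Replicate 2 was 1.54 times replicate 3 for *Fgfr2*, 1.57 times for *Fgf7* and 1.43 times for *Fgfrl1*, where the highest Dlx5 library was 1.56, 1.22 and 1.14 times the lowest. *Col9a1*, *Matn1* and *Col10a1* had 0 counts in every Dlx5 library. The most abundant, *Col2a1*, had a log2 fold change of 8.63, which was 6.52 without Fgfr3 replicate 2, 9.45 without Fgfr3 replicate 3 and 9.58 without Dlx5 replicate 1. *Col9a3* had 7.23 (4.76 without Fgfr3 replicate 2 and 8.09 without Fgfr3 replicate 3), and *Col11a2* had 4.24. Without Fgfr3 replicate 2, the log2 fold change of *Fgfr2* was 1.16, which still passed, and the difference of *Fgf18* was 4.13. Of 13 osteoblast markers, 11 were tested, 6 were higher in the Fgfr3 libraries and 1 in the Dlx5 libraries, beside 16.4% and 13.1% of all genes tested. That 1, *Phex*, reached 10 CPM in Fgfr3 replicate 2 but not in replicate 3, so nothing is read from it. The 13 markers summed to 8526, 8064 and 7262 CPM in Dlx5 replicates 1, 2 and 3, and 22369 and 25430 CPM in Fgfr3 replicates 2 and 3. The most abundant was *Mmp13* (1.98), and the largest changes were those of *Spp1* (2.61), *Phex* (-2.23, and -2.97 without Fgfr3 replicate 2) and *Dmp1* (2.17).

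All 15 pan-leukocyte markers were tested, 14 were higher in the Fgfr3 libraries, and all 15 were higher in Fgfr3 replicate 3 than in replicate 2. The 14 include genes, *Vav1* among them, that were under 10 CPM in every Dlx5 library and had to differ to be tested. The count therefore describes the list and nothing more is read from it. The 15 markers summed to 699, 614 and 539 CPM in Dlx5 replicates 1, 2 and 3, and 1713 and 3736 CPM in Fgfr3 replicates 2 and 3. The most abundant was *Arhgdib* (log2 fold change 1.98), and the largest changes were those of *Vav1* (3.11), *Spi1* (2.63) and *Lcp1* (2.43). Without Fgfr3 replicate 3, *Arhgdib*, *Spi1* and *Lcp1* had 1.20, 1.44 and 1.67, and without Fgfr3 replicate 2, *Spi1* had 3.27. In Fgfr3 replicate 2, which had fewer leukocyte reads, the 4 detected receptors were higher than in replicate 3, by 1.16 times for *Fgfr1* up to 1.54 times for *Fgfr2*. Without Fgfr3 replicate 3, the log2 fold change was 1.78 for *Fgfr2* and -1.04 for *Fgf7*.

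Of 8 mural and smooth muscle markers, 6 were tested and 4 were higher in the Fgfr3 libraries, among them *Mcam* (3.49), *Cspg4* (2.93, and 3.67 without Dlx5 replicate 1) and *Acta2* (2.03, and 1.91 with the call lost without Fgfr3 replicate 2). *Acta2* also reached 13.6 CPM in Dlx5 replicate 1, and the others called met the filter through the Fgfr3 libraries alone, so nothing is read from this count. The 8 markers summed to 379, 204 and 188 CPM in Dlx5 replicates 1, 2 and 3, and 289 and 228 CPM in Fgfr3 replicates 2 and 3, and *Notch3* was the most abundant. Of 12 endothelial markers, 1 was tested, *Pecam1*, the most abundant, which reached 10 CPM in both Fgfr3 libraries and in Dlx5 replicate 1. Its log2 difference was 0.94, under the threshold, and was past it at 1.29 without Dlx5 replicate 1 or with a term for the replicate number, and at 1.15 when scaled by library size alone. The endothelial sums were 51.5, 46.7 and 29.4 CPM in Dlx5 replicates 1, 2 and 3, and 44.5 and 56.3 CPM in Fgfr3 replicates 2 and 3. Of 10 erythroid markers, 9 were matched and tested, and 2 were higher in the Dlx5 libraries, *Hbb-bt* (-1.27) and *Hba-a1* (-1.18), globin genes that share 58.3% and 72.3% of their windows with a copy. The other 7 did not pass, 6 of the 9 had log2 fold changes above 0, and the median was 0.22. *Hba-a1* lost its call without Dlx5 replicate 1 (-0.83), Dlx5 replicate 3 (-1.24) or Fgfr3 replicate 2 (-0.93), when scaled by library size alone (-0.96), with a term for the replicate number (-0.84) and with the gene length trend taken out (-0.80). *Hbb-bt* lost its call with that trend taken out, also at -0.80. The erythroid markers summed to 36306, 17814 and 23445 CPM in Dlx5 replicates 1, 2 and 3, and 13891 and 20660 CPM in Fgfr3 replicates 2 and 3, with *Hbb-bs* the most abundant. Of 8 periosteal and tendon fibroblast markers, 3 were tested and 1 was higher in the Dlx5 libraries, *Mkx* (-1.35). Their sums were 379, 446 and 393 CPM in Dlx5 replicates 1, 2 and 3, and 480 and 473 CPM in Fgfr3 replicates 2 and 3, with *Postn* the most abundant. Outside the chondrocyte list, no marker was at 0 in every Dlx5 library. The part of other cell types in the levels of the FGF genes was not tested.

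**Figure D5:**
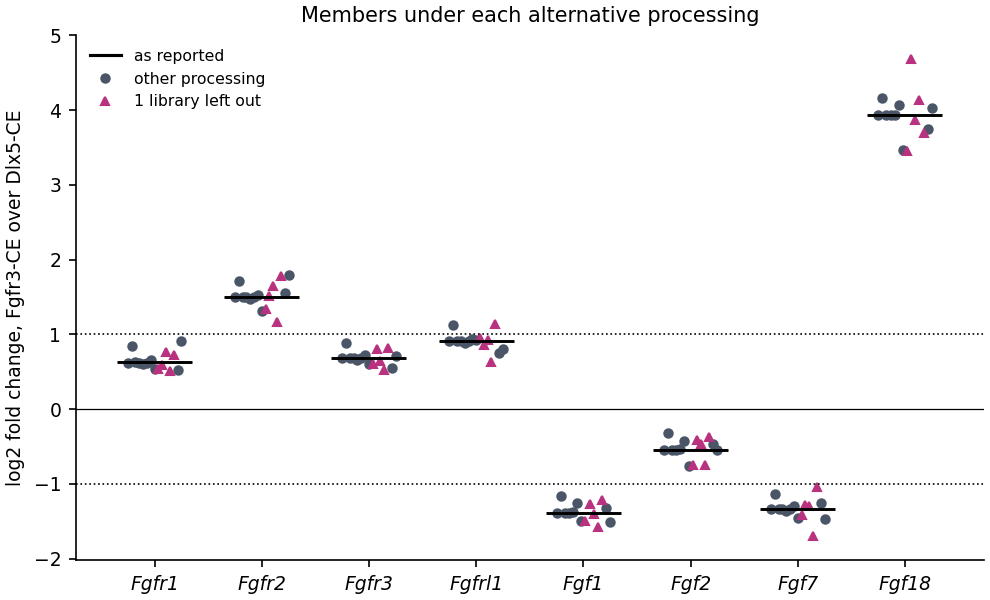
Log2 fold change (Fgfr3 over Dlx5) of the 8 members that could be fitted, under each alternative, with lines for the reported values, circles for other processing, triangles for fits with 1 library left out, and dotted lines at 1 and -1. *Fgfr2*, *Fgf18*, *Fgf1* and *Fgf7* stay outside the dotted lines, while *Fgfrl1* lies on both sides, from 0.63 to 1.14.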

How the data were processed

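The deposited counts were made by the authors, with TopHat2 2.0.13, Bowtie2 2.2.1 and HTSeq on mm10. Identifiers were matched to GENCODE M21 on GRCm38, in which 29965 of 30041 were found. Protein-coding genes and 5 reporter sequences with 10 CPM or more in 2 or more libraries entered a fit by edgeR 4.0.16 (R 4.3.3; TMM, quasi-likelihood test, no covariate), with p-values adjusted by the Benjamini-Hochberg method. Members and pathway genes below that filter were fitted at 1 CPM or more. Each SE was computed as the log2 fold change over the root of F. Counting intervals and floors cover counting error only. Tables and figures used Python 3.11.15. The fit was tested on simulated counts. Alternatives were other scaling, tests (DESeq2 1.42.0 and edgeR's exact test), filters and features, a replicate block, libraries left out, and removal of GC and length trends.

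The genes named are the members, all tested feedback inhibitors and targets, up to 3 of the largest called changes in each direction of each other list, ligands with a mean CPM of at least 1, up to 3 genes most like a called member or *Fgfr3*, genes within 100 kb of *Fgfr3* or overlapping a member, reporters, and the most abundant and up to 3 called markers of each list. Members and lists were chosen with earlier results of these data known. Single-cell data of the study were not used here.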

Additional observations from a re-analysis of the deposited data

How the results depend on the processing

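Of the 8 members that could be fitted, *Fgfr2* and *Fgf7* passed both thresholds under all 15 alternatives, and *Fgfr1*, *Fgfr3* and *Fgf2* kept their sign and stayed under the fold threshold. *Fgfrl1* had a log2 fold change of 1.12 when scaled by library size alone and passed. With 1 library left out, *Fgfrl1* ran from 0.63 to 1.14 and *Fgf1* from -1.58 to -1.22; the cause was not tested. Where an Fgfr3 library was left out, the lone one was assumed to vary like the Dlx5 libraries. A test for a change above 2-fold (glmTreat) called 1011 genes higher in Fgfr3 libraries and 659 higher in Dlx5 libraries, no fold threshold gave 2517 and 2363, and library size alone gave 1985 and 1009, beside 1653 and 1318.

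The groups share the replicate numbers 2 and 3, which refer to different pools of mice. With each group's mean taken out, the correlation of same-numbered libraries across genes was 0.124 for number 2 and -0.049 for number 3. It was -0.124 for Dlx5 replicate 2 with Fgfr3 replicate 3, and 0.049 for Dlx5 replicate 3 with Fgfr3 replicate 2. These mirror the first values, because 2 libraries deviate from their mean in opposite directions. With a replicate block, 1678 genes were higher in Fgfr3 libraries and 1382 in Dlx5 libraries, *Fgfr2* had a log2 fold change of 1.32 and *Fgf7* one of -1.46, no member gained or lost its call, and the adjusted p of *Fgfr1* was 0.0749 (0.00342 to 0.0806 over all alternatives).

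Of 80 other genes that the naming rule takes and that have a fit, 67 kept their side of the thresholds under every alternative, 10 lost a call in at least 1 and 3 gained one, and none was reversed. The shares of the receptors kept their direction with the length of the longest transcript or the coding length, at 13.7 and 13.9 points for *Fgfr2*. Depth limits *Fgfr4*, *Fgf10* and *Fgf18*.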
